A study of Mus musculus with 3 samples.

Results

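The genes described here encode 2 families of cyclin-dependent kinase (CDK) inhibitor, Cip/Kip (Cdkn1a, Cdkn1b, Cdkn1c) and INK4 (Cdkn2a, Cdkn2b, Cdkn2c, Cdkn2d), and the D-type cyclins (Ccnd1, Ccnd2, Ccnd3). They were taken by name, and all 10 were found among the 55536 genes of the GENCODE M21 gene tables. Polyadenylated RNA was sequenced from activated regulatory T cells, the CD4 T cells that restrain immune responses, isolated as primary cells from a 9-week-old adult male mouse of the strain Foxp3GFP-DTRCD4CreERT2R26tdTomato. By its name the strain carries a green fluorescent protein and diphtheria toxin receptor allele at Foxp3, a CD4-driven inducible Cre and a Rosa26 tdTomato reporter. How the cells were activated, and whether the Cre or the receptor was used, is not given in the sources used here. All 3 libraries are technical replicates 1, 2 and 3 of 1 biological replicate and form 1 group, so there is no treated or resting sample to compare them with. Every SD and p-value below therefore measures the spread between libraries of 1 cell sample and says nothing of the spread between animals.

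D-type cyclins bind CDK4 and CDK6, and the complexes phosphorylate the retinoblastoma family of pocket proteins, which frees E2F factors to transcribe the genes of DNA replication. INK4 proteins bind CDK4 and CDK6 alone and keep the D-type cyclins off them, while Cip/Kip proteins bind whole cyclin-CDK complexes and block CDK2 in particular. In T cells, cyclin D2 and cyclin D3 are the D-type cyclins known to be made on activation, and p27, the product of Cdkn1b, is known as a brake that holds resting cells out of the cycle.

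The gene tables assigned 20783676, 21206219 and 18496690 estimated counts to genes in libraries 1, 2 and 3. The 6 regulatory T cell markers were all expressed, with Foxp3 at 90.81, 96.44 and 82.98 TPM (a relative abundance adjusted for transcript length) and Il2ra at 369.45, 382.25 and 305.66 TPM. Among markers of other cells, 4 of 5 B cell genes, 4 of 5 myeloid genes, 1 of 2 CD8 T cell genes and 1 of 3 natural killer cell genes reached 1 TPM in every library, with summed levels of 47.9 to 52.8 TPM for B cells, 21.2 to 32.2 TPM for myeloid cells, 18.5 to 24.3 TPM for CD8 T cells and 2.04 to 3.13 TPM for natural killer cells. S100a8 and Pdgfra were listed at 0, and no stromal or endothelial marker reached 1 TPM. Erythroid genes summed to 909, 1270 and 1146 TPM and were all highest in library 2, while 20 of 20 proliferation genes were lowest in library 2. Because the RNA is from a bulk sample, fewer cells of a type and less RNA per cell cannot be told apart in any value below.

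Of the 10 genes, 6 were at 1 TPM or more in every library, against 47.4% of the 21951 protein-coding genes. They were Ccnd2, Ccnd3, Cdkn2d, Cdkn1b, Cdkn2c and Cdkn1a, in that order of gene-level TPM. The order of these 6 was the same in all 3 libraries and no neighbouring pair overlapped. The other 4, Cdkn1c, Cdkn2b, Ccnd1 and Cdkn2a, stayed under 0.5 TPM.

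**Figure D1:**
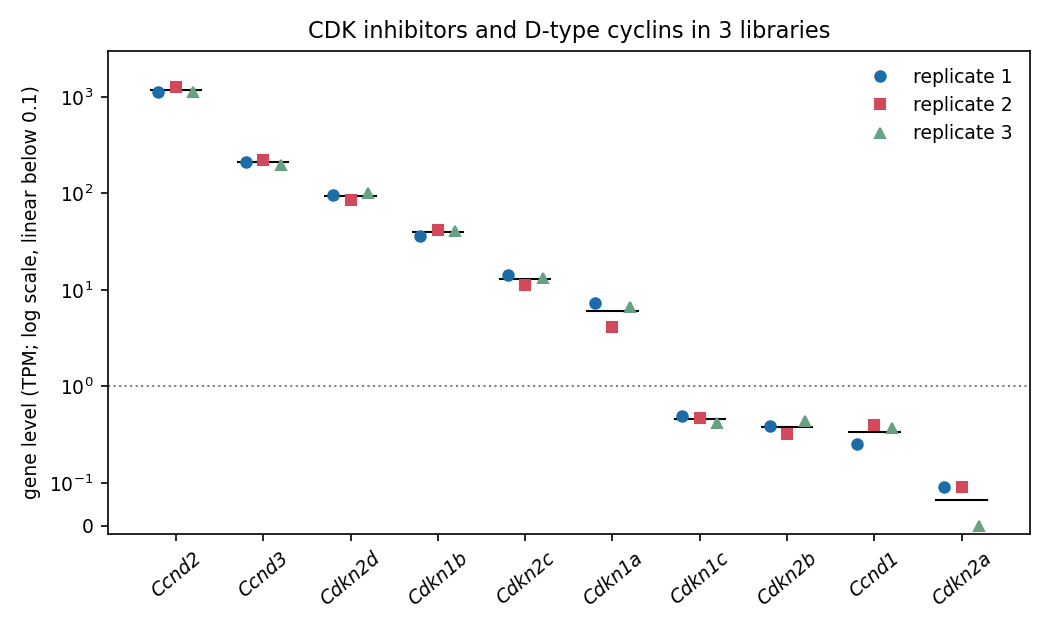
Gene-level TPM of the 10 genes, ordered by mean, on a log scale that is linear below 0.1, with 1 point per library (replicate), a bar at the mean and a dotted line at 1 TPM. The points run between 1257 TPM for Ccnd2 in library 2 and 0 for Cdkn2a in library 3, and the gap between the expressed and the scarcely detected genes lies between Cdkn1a, at 4.12 TPM or more, and Cdkn1c, at 0.49 TPM or less.

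Ccnd2, on chromosome 6 (mm10, 127125162 to 127152193, minus strand, ENSMUSG00000000184.12), encodes cyclin D2. Its gene-level TPM was 1123, 1257 and 1120 in libraries 1, 2 and 3 (1167 ± 78.0, SD, n = 3). Only 0.405% of protein-coding genes were at or above that mean, and all 3 libraries were above every other gene described here. Ccnd3, on chromosome 17 (47505051 to 47599691, plus strand, ENSMUSG00000034165.16), encodes cyclin D3. Its level was 213, 223 and 198 TPM (212 ± 12.9, SD, n = 3), placing it under Ccnd2 in each library, with 3.39% of protein-coding genes at or above it. Ccnd1, on chromosome 7 (144929931 to 144939925, minus strand, ENSMUSG00000070348.5), encodes cyclin D1, the D-type cyclin typical of epithelial and fibroblast cells. It had 0.25, 0.40 and 0.37 TPM, from 12.25, 20.50 and 13.74 estimated counts. Its 3′ part overlaps 1771 bases of LTO1 on the opposite strand, which had 18.91, 23.96 and 25.12 TPM. No source used here gives the strand setting of the counting. How much of the low Ccnd1 signal comes from LTO1 reads was not tested. Of the summed D-type cyclin TPM, Ccnd2 made up 84.6 ± 0.520%, Ccnd3 15.4% and Ccnd1 0.0246%.

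Cdkn2d, on chromosome 9 (21288410 to 21291407, minus strand, ENSMUSG00000096472.2), encodes p19Ink4d and was the INK4 gene with the highest level. It had 96.36, 85.10 and 99.59 TPM (93.7 ± 7.61, SD, n = 3), and 8.69% of protein-coding genes were at or above it. Cdkn2c, on chromosome 4 (109660876 to 109667189, minus strand, ENSMUSG00000028551.14), encodes p18Ink4c, which is known to limit the division of stimulated lymphocytes in mice. It had 14.16, 11.18 and 13.21 TPM (12.9 ± 1.52, SD, n = 3), with library 2 the lowest for both genes. Cdkn2b, on chromosome 4 (89306299 to 89311039, minus strand, ENSMUSG00000073802.5), encodes p15Ink4b. It had 0.39, 0.32 and 0.44 TPM from 7, 6 and 7 counts, with 20 counts over the 3 libraries.

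Cdkn2a, the neighbour of Cdkn2b (89274471 to 89294653, minus strand, ENSMUSG00000044303.6), encodes the senescence-linked inhibitor p16Ink4a and, from another first exon and reading frame, p19Arf. It had 1, 1 and 0 counts. The 2 counts in all carry an exact Poisson 95% interval of 0.242 to 7.22 counts, or 0.0040 to 0.119 CPM (counts scaled to the library total) over the pooled libraries. The 3 counts that a count of 0 still allows came to 0.144, 0.141 and 0.162 CPM in libraries 1, 2 and 3. Cdkn2a was below that level in each library, so its level is not fixed at this depth. The count of library 1 was assigned to the p19Arf transcript with a posterior SD of 0. That of library 2 was assigned to the p16Ink4a transcript, but both transcripts had a posterior SD of 0.5 there. Its placement is thus open, and no count is firmly placed on p16Ink4a. Intervals and floors here cover counting error only. Cdkn2d made up 87.6 ± 0.676% of the summed INK4 TPM, Cdkn2c 12.0 ± 0.662%, Cdkn2b 0.357% and Cdkn2a 0.0581%.

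Cdkn1b, on chromosome 6 (134920401 to 134925513, plus strand, ENSMUSG00000003031.14), encodes p27Kip1. It had 35.95, 41.57 and 40.31 TPM (39.3 ± 2.95, SD, n = 3), with library 1 the lowest and 18.6% of protein-coding genes at or above it. Cdkn1a, on chromosome 17 (29090976 to 29100727, plus strand, ENSMUSG00000023067.14), encodes p21Cip1, a target of the tumour suppressor p53. Its level was 7.34, 4.12 and 6.62 TPM (6.03 ± 1.69, SD, n = 3), and library 2 stood below the other two. Cdkn1c, on chromosome 7 (143458339 to 143461050, minus strand, ENSMUSG00000037664.13), encodes p57Kip2 from an imprinted gene. It had 0.49, 0.47 and 0.42 TPM from 9, 10 and 5 counts, and its level overlapped that of Cdkn2b, as Cdkn2b overlapped Ccnd1. Cdkn1b made up 85.8 ± 4.01% of the summed Cip/Kip TPM, Cdkn1a 13.2 ± 3.97% and Cdkn1c 1.01%. Each family thus had 1 gene with more than 80% of its gene-level TPM.

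The lead of Ccnd2 over Ccnd3 depended on the measure and on which transcripts were counted in. TPM divides each transcript's estimated count by its length, and a gene's TPM is the sum over its transcripts, so short annotated fragments weigh heavily. Ccnd2 has 8 annotated transcripts, and 1 of them, Ccnd2-201 of 6330 bases, holds the full coding sequence of 867 bases. Ccnd2-201 took 7258, 9857 and 6230 estimated counts, or 49.6% of the gene's counts, but 8.10 ± 0.802% of its TPM. Ccnd2-206, a fragment of 627 bases with an incomplete coding sequence, took 24.5% of the counts and 43.4 ± 1.08% of the TPM. Ccnd2-207, a processed transcript of 415 bases with no coding sequence, took 10.9% of the counts and 30.6 ± 0.898% of the TPM. Short transcripts thus made up most of the Ccnd2 level. Ccnd2-204, of 1006 bases with a coding sequence of 468 bases, took 9.74% of the TPM, and Ccnd2-205, of 115 bases, took 5.95% of the TPM on 0.387% of the counts.

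**Figure D2:**
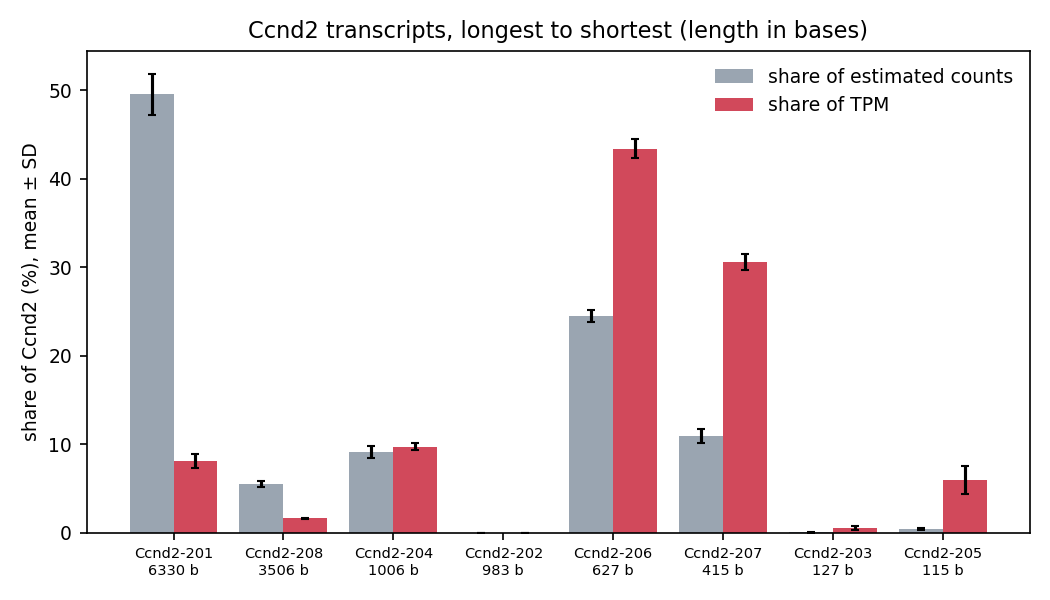
Share of each annotated Ccnd2 transcript in the gene's TPM and in its estimated counts, as bars of the mean with the SD over the 3 libraries and transcripts ordered from the longest to the shortest. Ccnd2-201, the transcript with the full coding sequence, holds 49.6% of the counts and 8.10% of the TPM, and Ccnd2-206 holds 43.4% of the TPM.

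Counting only transcripts annotated with a full-length coding sequence reversed the order of the D-type cyclins. Full-length here means complete and at least 90% of the gene's longest. Ccnd2 then had 87.44, 113.27 and 84.08 TPM (94.9 ± 16.0, SD, n = 3) and Ccnd3 had 154.02, 161.52 and 138.52 TPM (151 ± 11.7, SD, n = 3). Ccnd2 was 0.627 times Ccnd3, lower in all 3 libraries with no overlap, whereas at gene level it was 5.51 times Ccnd3 in TPM. The reversal rests on leaving out Ccnd2-206, which averaged 507 TPM. Its annotated coding sequence of 568 bases has the start codon of Ccnd2-201 but is incomplete. Whether its RNA runs on to the full coding sequence was not tested, so the order of full coding RNA is not settled. Dividing each gene's CPM by the length of its longest complete transcript gave 113, 141 and 111 CPM per kilobase for Ccnd2 and 114, 124 and 105 CPM per kilobase for Ccnd3. By that measure the ratio was 1.06, the ranges overlapped, and Ccnd2 was higher in 2 of 3 libraries. With shorter complete coding sequences counted in, Ccnd2 held 57.7% of the D-type cyclin TPM and Ccnd3 42.2%. Over the 10415 protein-coding genes at 1 TPM or more in every library, the median share of TPM on transcripts with a full-length coding sequence was 72.6%, and 7.68% of them had a share at or below the 8.14% that Ccnd2 had on mean TPM. For Ccnd3 that share was 71.5%.

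**Figure D3:**
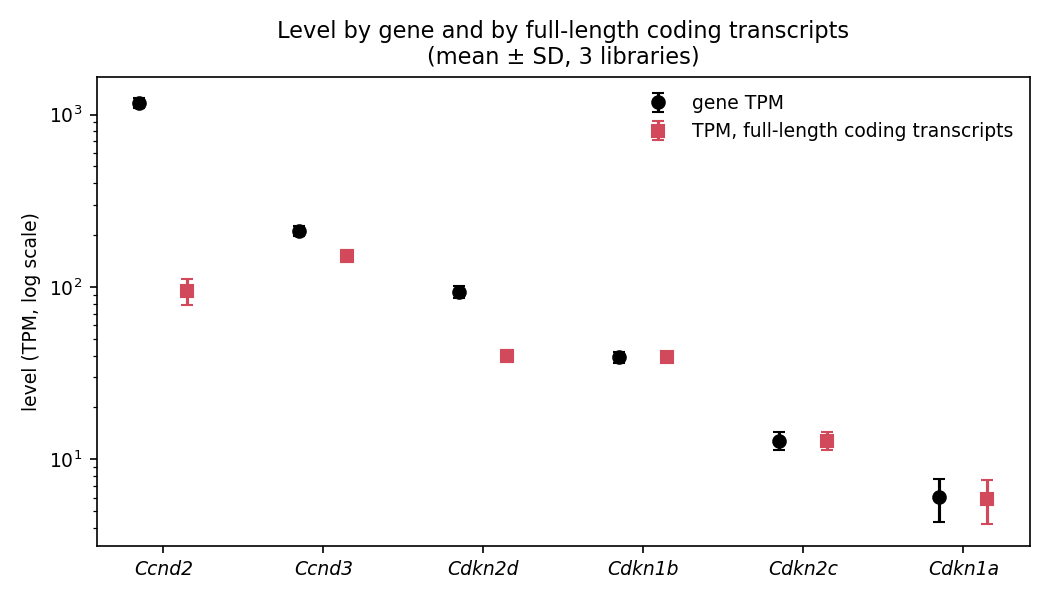
Gene-level TPM and TPM of transcripts with a full-length coding sequence for the 6 expressed genes, as means with the SD over 3 libraries on a log scale. Ccnd2 stands above Ccnd3 by gene-level TPM (1167 against 212 TPM) and below it by full-length coding transcripts (94.9 against 151 TPM), and Cdkn2d overlaps Cdkn1b by the second measure.

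The levels of Cdkn2d and Cdkn1b also depended on the measure, in another way. Cdkn2d-203, with a coding sequence of 498 bases, took 42.7 ± 2.56% of the Cdkn2d TPM, and Cdkn2d-201, with a coding sequence of 150 bases, took 57.3%. The quantifier gave posterior SDs of 76.8 to 88.3 counts for the 2 transcripts, which had 644 to 858 counts each. On transcripts with a full-length coding sequence Cdkn2d had 43.21, 37.02 and 39.73 TPM, overlapping the 35.96, 41.57 and 40.30 TPM of Cdkn1b. The ratio of Cdkn2d to Cdkn1b was 1.02 there, with Cdkn2d higher in 1 of 3 libraries. It was 2.39 in gene-level TPM and 3.26 in CPM per kilobase, and by both of these Cdkn2d was higher in all 3 libraries with no overlap. Both main transcripts of Cdkn1b, Cdkn1b-201 with 69.0% of its TPM and Cdkn1b-202 with 30.5%, carry the same coding sequence of 591 bases. Its TPM thus did not depend on keeping only full-length coding sequences. Its CPM per kilobase was divided by the 4552 bases of Cdkn1b-202, while Cdkn1b-201 is 2393 bases long, which raises the ratio of 3.26.

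Ccnd3 and Cdkn1a each had estimated counts on transcripts of 2 annotated start sites, whose use was not itself measured. The windows before those starts are shown because the transcripts of both genes divide between them. The sequences are the 250 bases before each RefSeq start (GRCm38.p6), on the gene's plus strand, 5′ to 3′. Capitals mark the GC box GGGCGG, the CCAAT box, the TATA box TATAAA, the E2F core as TTCCCGC or as TTGGCGC, and the cyclic AMP element core TGACGT, each on either strand and free to overlap, and the p53 response element, a pair of adjoining sites with at most 1 mismatch. Ccnd3 comes first, with the upstream window (chr17:47504801-47505050) and then the downstream window (chr17:47593217-47593466), and Cdkn1a follows, with the upstream window (chr17:29090729-29090978) and then the downstream window (chr17:29093519-29093768).
Ccnd3 upstream: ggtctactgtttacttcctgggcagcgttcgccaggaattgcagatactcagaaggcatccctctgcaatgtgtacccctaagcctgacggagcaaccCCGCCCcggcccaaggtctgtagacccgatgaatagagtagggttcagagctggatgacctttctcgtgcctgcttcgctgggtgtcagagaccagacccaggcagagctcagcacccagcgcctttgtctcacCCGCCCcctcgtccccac
Ccnd3 downstream: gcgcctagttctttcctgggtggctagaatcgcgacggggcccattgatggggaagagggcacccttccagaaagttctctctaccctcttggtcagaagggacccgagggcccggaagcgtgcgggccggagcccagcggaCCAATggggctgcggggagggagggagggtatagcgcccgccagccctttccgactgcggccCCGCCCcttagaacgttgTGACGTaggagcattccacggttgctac
Cdkn1a upstream: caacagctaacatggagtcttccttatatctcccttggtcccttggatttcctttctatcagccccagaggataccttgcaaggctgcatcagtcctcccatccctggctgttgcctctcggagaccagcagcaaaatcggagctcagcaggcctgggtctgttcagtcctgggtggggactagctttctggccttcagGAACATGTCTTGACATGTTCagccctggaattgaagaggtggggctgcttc
Cdkn1a downstream: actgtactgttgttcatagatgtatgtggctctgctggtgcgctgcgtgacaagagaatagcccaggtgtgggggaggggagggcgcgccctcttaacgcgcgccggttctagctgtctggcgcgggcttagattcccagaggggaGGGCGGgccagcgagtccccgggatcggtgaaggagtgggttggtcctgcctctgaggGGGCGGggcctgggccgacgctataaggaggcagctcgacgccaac

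The Ccnd3 starts lie 88416 bases apart, and the transcripts with a full-length coding sequence from both share 1 start codon, so they differ in their leader and not in the protein. Transcripts from the upstream start held 63.8, 62.0 and 71.5% of Ccnd3 TPM in libraries 1, 2 and 3, and those from the downstream start held 35.0, 38.0 and 25.9%. Over all transcripts the upstream start was the larger in every library, and by estimated counts it held 63.5% against 36.1%. The upstream total includes retained-intron transcripts with no coding sequence, of which Ccnd3-203 held 12.9% of TPM and Ccnd3-216 8.45%. On transcripts with a full-length coding sequence the upstream start had 81.05, 78.08 and 88.64 TPM and the downstream start 72.97, 83.44 and 49.88 TPM, so the order turned in library 2. The largest upstream coding transcripts were Ccnd3-201 with 23.6% of TPM and Ccnd3-215 with 9.95%, and the downstream one was Ccnd3-205 with 32.3%. Their posterior SDs, 173 to 269 counts, show how far reads of shared exons could be moved between them. Ccnd3-216, a retained-intron transcript that begins near the upstream start, had 580, 695 and 547 counts with a posterior SD of 0, and needed no such division. The upstream window holds 11 CG dinucleotides and 2 GC boxes, and the downstream window 19 CG dinucleotides, 1 GC box, 1 CCAAT box and 1 TGACGT.

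The Cdkn1a starts lie 2790 bases apart, and Cdkn1a-202 from the upstream start and Cdkn1a-201 from the downstream start have the same coding length of 477 bases. The upstream start held 57.1, 60.7 and 56.2% of Cdkn1a TPM, and the downstream start 42.9, 33.5 and 43.8%. By estimated counts the order turned, with 39.8% upstream and 58.4% downstream, because Cdkn1a-202 is 922 bases long and Cdkn1a-201 is 1913 bases long. At 28.3 to 46.5 counts for Cdkn1a-202 and 33.6 to 77.5 for Cdkn1a-201, with posterior SDs of 6.83 to 15.0 counts, the split is loosely fixed. The upstream window holds 2 CG dinucleotides and a match to the p53 response element with 1 mismatch, which ends 31 bases before the start. Among 32851 RefSeq windows of the same length, 25 (0.0761%) hold such a match. The downstream window holds 19 CG dinucleotides and 2 GC boxes, against 32.7% of windows with a GC box and a median of 6 CG dinucleotides per window. A match is a description of letters and not a measured site.

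**Figure D4:**
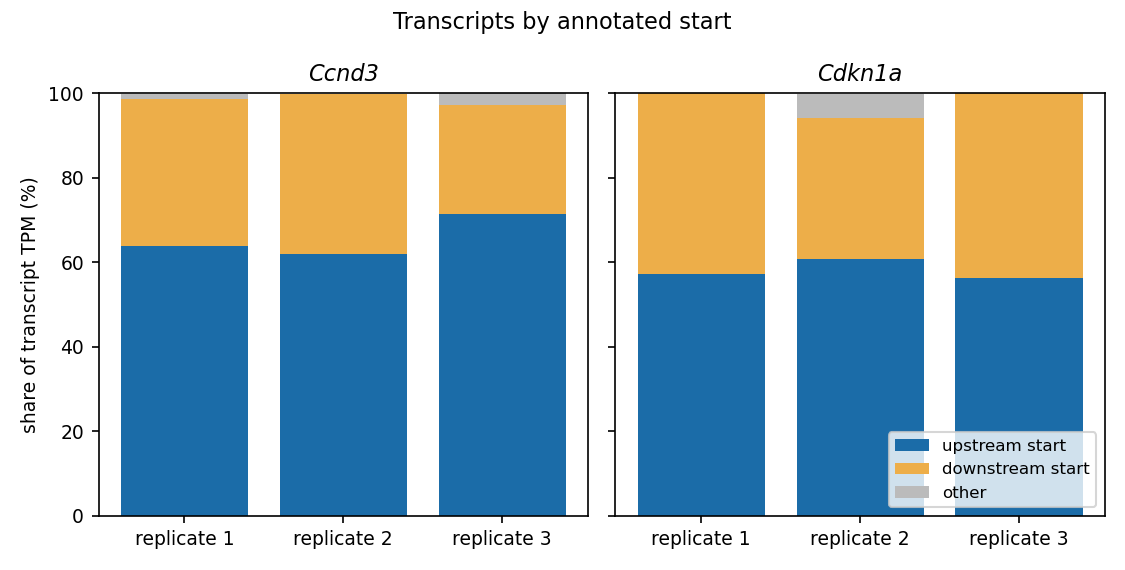
Percentage of the TPM of Ccnd3 and Cdkn1a assigned to transcripts from the upstream start, the downstream start and other starts, as 1 stacked bar per library (replicate). The upstream start holds the larger share in every bar, 62.0 to 71.5% for Ccnd3 and 56.2 to 60.7% for Cdkn1a, with transcripts that lack a coding sequence counted in.

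Cdkn2c also has 2 RefSeq starts, 1384 bases apart. Cdkn2c-201, from the downstream start inside the gene, held 89.3, 96.1 and 91.9% of its TPM (92.4 ± 3.40, SD, n = 3), and Cdkn2c-202, which begins further upstream, held 7.57%. By estimated counts these shares were 84.4% and 15.6%, since Cdkn2c-202 is 2471 bases long and Cdkn2c-201 is 1106 bases long. Both carry the same coding length of 504 bases. The window before the downstream start holds 6 CG dinucleotides and none of the motifs searched, and the one before the upstream RefSeq start holds 29 CG dinucleotides, 3 GC boxes and 1 E2F core, a motif present in 5.62% of windows. The RefSeq table had windows for 7 of the 10 genes.

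The libraries differed from each other by more than counting noise for 6 of the 7 genes with at least 30 counts in all (chi-square test of homogeneity on rounded estimated counts, Benjamini-Hochberg adjusted over 14641 genes). Over all genes tested 44.9% were called, and the share was 55.4% where the mean count reached 100, so a call is common here. The median ratio between the highest and the lowest library was 1.26 for the 7 genes and 1.22 for all genes tested. The cyclins and Cdkn1b were highest in library 2, while Cdkn1a, Cdkn2c and Cdkn2d were lowest in it, also with TMM or DESeq2 scaling.

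Ccnd2 had 717, 890 and 705 CPM in libraries 1, 2 and 3, a ratio of 1.26 (adjusted p = 4.22e-122, chi-square test). Ccnd3 had 240, 262 and 223 CPM, a ratio of 1.18 (adjusted p = 1.48e-13, chi-square test). The small p-values go with the high counts of the cyclins, since 44.1% and 57.7% of all genes tested had ratios at least as large. Cdkn1b had 68.4, 82.8 and 76.1 CPM, a ratio of 1.21 (adjusted p = 3.79e-06, chi-square test). Cdkn2d had 78.8, 71.4 and 81.2 CPM, a ratio of 1.14 (adjusted p = 0.00346, chi-square test). Libraries 1 and 3 were close to each other for Cdkn2d, with library 2 below. Cdkn2c had 10.8, 8.11 and 9.84 CPM, a ratio of 1.33 (adjusted p = 0.0374, chi-square test), and with TMM scaling its adjusted p was 0.0505. Cdkn1a had 6.06, 3.29 and 5.51 CPM, a ratio of 1.84 (adjusted p = 4.98e-04, chi-square test), and 11.4% of all genes tested had a ratio as large. Ccnd1 had a ratio of 1.64 that did not pass (adjusted p = 0.504, chi-square test).

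Most of these differences rested on library 2. Without it, 2 of the 6 genes then tested were called, Cdkn1b with a ratio of 1.11 (adjusted p = 0.0194, chi-square test) and Ccnd3 with a ratio of 1.08 (adjusted p = 0.00210, chi-square test), and 27.7% of all genes tested. Without library 1, 4 of 7 were called and 30.3% of all genes tested, with Cdkn1b (adjusted p = 0.0606, chi-square test) and Cdkn2c (adjusted p = 0.161, chi-square test) lost. Library 2 also had the heat shock gene Hspa1b at 79.7 CPM, against 9.85 and 7.97 CPM in libraries 1 and 3, and the proliferation genes summed to 1233, 928 and 1102 TPM. The part of these in the results was not tested.

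A second gene table of whole-number counts on GENCODE M4 genes was deposited for each library. It held 6288764, 6209287 and 5746072 counts, about 29.3 to 31.1% of the estimated counts. In it 0 of 6 genes tested were called, and 0 had an unadjusted p under 0.05 (chi-square test), while 23.2% of all genes tested in that table were called. With fewer counts the test is weaker, so a lost call alone does not show a changed ratio. Between the libraries highest and lowest in estimated counts, the Cdkn2d ratio stayed at 1.14. That ratio was smaller for Cdkn1a (1.47), Cdkn2c (1.16), Ccnd3 (1.09) and Cdkn1b (1.08). Ccnd2 had 287, 296 and 309 CPM there (p = 0.0925, chi-square test), with library 3 the highest, not library 2. Cdkn1a had 8.27, 5.64 and 8.53 CPM (p = 0.123, chi-square test), with library 2 again the lowest. Cdkn2d had 87.1, 77.9 and 88.8 CPM (p = 0.0861, chi-square test), also with library 2 the lowest.

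**Figure D5:**
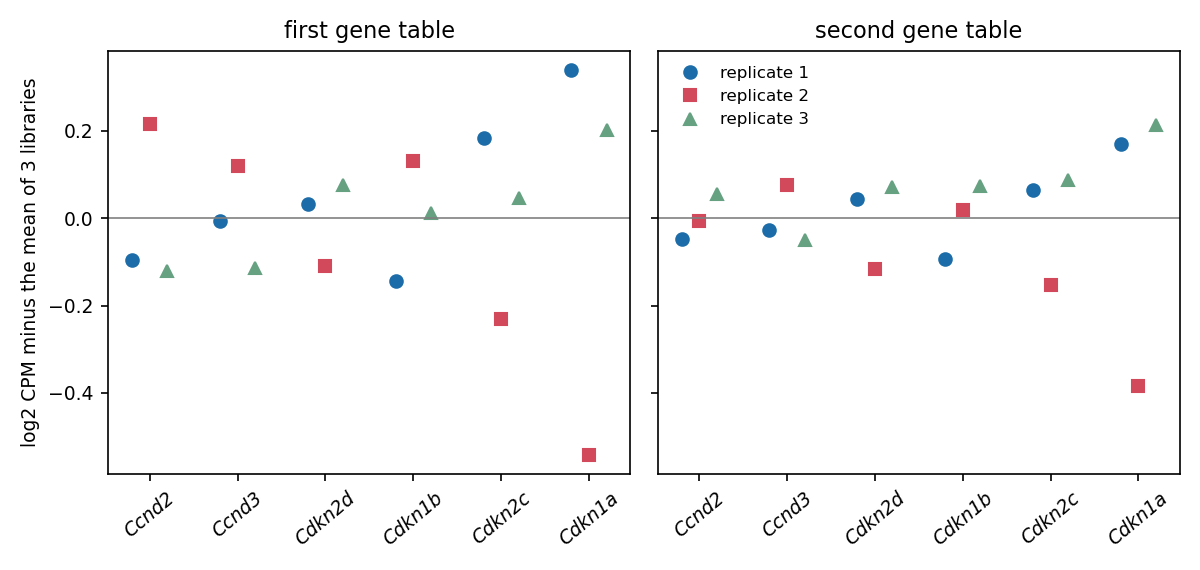
Log2 CPM of the 6 expressed genes in each library (replicate) minus the gene's mean over the 3 libraries, for the estimated counts (first gene table) and the whole-number counts (second gene table). In the first, library 2 stands highest for Ccnd2, Ccnd3 and Cdkn1b and lowest for Cdkn2d, Cdkn2c and Cdkn1a, and in the second it is highest only for Ccnd3 among these 6.

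The whole-number count was 11.6% of the estimated count for Ccnd2 and 19.4% for Ccnd3, against a median of 47.1% over 11842 genes (quartiles 28.9 and 64.4%). As many as 8.82% of genes had a share as low as that of Ccnd2. It was 53.7% for Cdkn2c, 45.7% for Cdkn1a, 38.1% for Cdkn1b and 33.1% for Cdkn2d. Ccnd2 thus made up 65.5% of the D-type cyclin counts in the second table and 76.0% of the estimated counts.

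The partners and targets of these proteins were also expressed. Of 48 genes in 7 lists, 46 reached 1 TPM in every library, and 28 of the 47 tested differed between libraries, a share of 59.6% against 44.9% of all genes tested and 55.4% of those reaching a mean count of 100. Their median ratio was 1.21, and that of all genes 1.22. The counts of called genes given for each list below stand against the same background. Cdk4, the kinase partner of the D-type cyclins, had 326, 300 and 356 TPM. Cdk6, the other partner, had 20.39, 13.48 and 13.62 TPM, and was the lowest of the 7 CDK and activating kinase genes on average (15.8 ± 3.95, SD, n = 3), of which 4 were called. Ccnh, the cyclin of the CDK-activating kinase, averaged 82.8 TPM, and the mitotic kinase gene Cdk1 had 20.57, 15.71 and 17.32 TPM. Among the E, A and B cyclins, which act after the D-type cyclins in the cycle, 4 of 5 were called. Ccnb2 averaged 29.1 TPM and Ccnb1 17.7 TPM, Ccne1 was the lowest at 2.93 TPM, and Ccna2 had 7.18, 3.01 and 3.65 TPM. Each was below Cdk4 and below gene-level Ccnd3 in TPM.

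Of the pocket proteins, the substrates of cyclin D complexes, Rbl2 (p130, known as the form of resting cells) had 122.63, 100.73 and 89.38 TPM, Rb1 averaged 40.5 TPM and Rbl1 (p107) 34.7 TPM, and 2 of 3 were called. By CPM, which is not adjusted for length, Rb1 was far below Rbl1, with 17.0, 17.2 and 18.8 against 93.8, 81.4 and 82.8 CPM. The order of Rb1 and Rbl1 thus depended on the measure, and the cause was not tested. E2f4, a repressor that works with p130, was the highest of the 10 E2F and DP genes at 70.2 ± 9.14 TPM (SD, n = 3), followed by the dimer partner Tfdp1 at 43.6 TPM. The activator E2f1 was the lowest at 1.89 TPM, E2f8 averaged 2.79 TPM with a ratio of 1.89 in CPM, and 5 of 10 were called. Among 6 genes for the turnover of p27 and D-type cyclins, 3 were called. Cul1, the scaffold of the SCF ubiquitin ligases, averaged 70.7 TPM, Ambra1, the receptor that marks D-type cyclins for degradation, 48.8 TPM, and Fbxo31 2.53 TPM. Cks1b, which helps the ligase bind p27, had 38.87, 24.41 and 41.01 TPM, lowest in library 2.

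Of 8 upstream regulators 6 were called, and Trp53 (p53) averaged 197 TPM and Myc, which is known to repress Cdkn1a and induce Ccnd2, 186 TPM. Foxo3, one of the factors that induce Cdkn1b, was the lowest at 1.72 TPM, while Foxo1 of the same family averaged 10.8 TPM. Bmi1, a repressor of Cdkn2a, averaged 7.11 TPM with a ratio of 1.37 in CPM. Of 10 p53 target genes 8 reached 1 TPM and 5 of 9 tested were called. Trp53inp1 averaged 177 TPM and Ccng1 161 TPM, both above Cdkn1a, and Eda2r was listed at 0 in all 3 libraries. Of the 20 proliferation genes 19 were called. Mcm6 averaged 154 TPM, Pcna 148 TPM and Bub1, the lowest, 4.09 TPM.

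Likeness between genes across the libraries was measured as the Euclidean distance between their log2 CPM values, each centred on its mean over the 3 libraries, among 61 pathway and proliferation genes with a mean count of 100 or more. With 3 points of 1 sample this describes these libraries and nothing more. The distances were taken on estimated counts only, and by whole-number counts Ccnd2 was highest in library 3. Cdkn2c was nearest to Mki67, at a distance of 0.0113, with 3 of 9955 genes as near, and next to Mcm3 at 0.0211, with 10 as near. Cdkn1b was nearest to Sesn2 at 0.0185, with 30 genes as near, and Foxo1 at 0.0535, with 248. Cdkn2d was nearest to Cenpa at 0.0406 and Mcm4 at 0.0517, with 346 and 539 genes as near. Ccnd2 was nearest to Fas at 0.0623 and Foxo3 at 0.0804, and Ccnd3 to Trp53inp1 at 0.0569 and Fas at 0.0725, with 152 to 387 genes as near. Cdkn1a had a mean count of 99.3 and was left out by that minimum.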

How the data were processed

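Per the labels the assembly was mm10, and per the content lists and file headers deposited with each library the authors made 2 gene tables and 1 transcript table from it. In the first gene table and the transcript table (GENCODE M21), the deposited values used were the estimated count, the TPM, the FPKM, the percent of a gene's TPM held by a transcript, and the posterior SD of the count, a signal column by the authors with interval bounds beside it. The quantifier's name and the second table's counter are not stated in any header used here. The second gene table holds deposited whole-number counts on GENCODE M4 genes, put through the same test. The first gene table also has 26345 rows that name no gene, which held 0.231, 0.271 and 0.189% of estimated counts and were left out of totals.

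Estimated counts were rounded, and each gene with 30 or more summed counts was tested for equal shares of the library totals with a Pearson chi-square test (2 degrees of freedom, scipy 1.17.1), Benjamini-Hochberg adjusted over all genes, with a threshold of 0.05. Of these steps, only the chi-square test was tried on simulated counts, which had known changes and counting error only. Alternatives used TMM (edgeR 4.0.16) or DESeq2 1.42.0 scaling, other count minimums, a deviance statistic, the second table and each library left out. The 10 genes and the lists were chosen with earlier results of these data known. The levels on complete and on full-length coding sequences and per kilobase were added after seeing the data. Named genes are the 10, the 2 highest, the lowest and the most variable called gene (mean count 100 or more) of each list, and the 2 nearest genes of each called member with that count.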

Additional observations from a re-analysis of the deposited data

How the results depend on the processing

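With 3 libraries of 1 sample, no difference between conditions or animals can be read from these values, and the chi-square test covers counting error only. Under the whole-number counts 0 of 6 genes tested, 12 of 46 pathway genes and 2520 of 10885 genes in all (23.2%) were called. With estimated counts these were 6 of 7, 28 of 47 and 6575 of 14641 (44.9%). The whole-number counts are fewer, so the test is weaker. The Ccnd2 ratio, of library 2 to library 3 in estimated counts, turned to 0.957 under them. Leaving out each library in turn gave 2 to 6 of the 10 genes, 16 to 24 pathway genes and 3782 to 4700 of all genes (27.7 to 34.0% of those tested). The Cdkn1b share of Cip/Kip was 93.3% by estimated counts and 92.4% by whole-number counts. The Cdkn2d share of INK4 was 88.6% by estimated counts, 82.8% by whole-number counts, 75.1% on full-length coding sequences and 92.9% per kilobase. The Ccnd2 share of D-type cyclins was 76.0% by estimated counts, 65.5% by whole-number counts, 57.7% on complete coding sequences, 38.4% on full-length ones and 51.4% per kilobase. The cause was not tested. The scaling and deviance alternatives called 5 or 6 of 7 tested, with Cdkn2c lost under TMM, and 44.7 to 45.0% of all genes. Count minimums of 1, 10 and 100 called 5 of 10, 6 of 9 and 6 of 6 tested, with Cdkn2c lost at 1, and 20.1, 38.1 and 51.9% of all genes. No paired analysis was possible because the 3 libraries form 1 group.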
